A study of Mus musculus with 56 samples.

Results

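Liver gene expression under day-restricted feeding (DRF) was compared with that under night-restricted feeding (NRF) at a single time of day, zeitgeber time (ZT) 8, which lies 8 h after lights on in a cycle of 12 h light and 12 h dark. The comparison took the 4 DRF and the 4 NRF libraries collected at ZT8, 8 of the 56 liver libraries in the series. Every library came from the liver of a female C57BL/6J mouse, aged 9 weeks, that received food only by day (DRF) or only by night (NRF) for 7 days after 7 days of acclimation. No transgene, deletion or drug was used, and livers were taken at ZT0, 4, 8, 12, 16, 20 and 24, with 4 libraries in each of the 14 groups. At ZT8 the feeding phase of DRF mice coincided with the fasting phase of NRF mice, and the clock hours of food access are not given in the labels. NRF, the regimen that matches the nocturnal habit of mice, served as the reference, so every difference below is DRF minus NRF.

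In liver, the circadian clock is a feedback loop in which ARNTL (BMAL1) with CLOCK or NPAS2 drives its own repressors, the PER and CRY proteins, and the nuclear receptors NR1D1 and NR1D2, which in turn repress Arntl through sites that the ROR receptors use to activate it. Meals reset this loop and also act on metabolism directly: insulin and glucose raise transcription of the genes for glucose disposal and fatty acid synthesis through SREBP-1c and ChREBP, whereas fasting lifts the repression of gluconeogenesis by insulin and engages PPAR-alpha for fatty acid oxidation and ketone production. Restricting food to the rest phase therefore sets feeding signals against light signals, and the hour of day at which a gene is read decides which phase of its rhythm is seen.

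Gene levels are given as scaled counts, the whole counts recovered from the deposited values and divided by a factor for each library, so that each ZT8 library sums to between 898670 and 995476. The recovered counts summed to 431741685 to 509786386 per DRF library and 383941518 to 687803780 per NRF library at ZT8. These sums are far above the average number of reads per sample that the authors report, so a recovered count is not a single read. On this scale 3 counts corresponded to a scaled count between 0.00415 and 0.00722, a nominal floor that does not measure the counting error of reads. Replicates correlated at r = 0.9796 to 0.9849 under DRF and 0.9827 to 0.9877 under NRF across 13745 genes. Xist, expressed from the inactive X chromosome of females, lay between 75.6 and 125 in all 8 libraries, and the summed level of 6 hepatocyte markers was 102550 to 119600 under DRF and 105910 to 122670 under NRF, with 1 of the 6 lower (Fgb, a fibrinogen gene, log2 difference -0.51 ± 0.11). Of the marker lists for other cells, none of the Kupffer cell, stellate cell, lymphocyte, neutrophil or erythroid genes passed the test, the 1 acinar and the 1 adipocyte gene measured did not pass either, 1 of 7 sinusoidal endothelial genes was lower (Stab2), and 2 of 5 cholangiocyte genes were higher (Krt19 and Sox9). The summed stellate markers were 643 to 718 under DRF and 724 to 838 under NRF, the endothelial markers 458 to 549 and 541 to 619, and the cholangiocyte markers 20.7 to 40.1 and 22.4 to 29.1. The part of these cells in the differences below was not tested, and in whole liver fewer cells of a type cannot be told apart from less RNA per cell.

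At ZT8, 3296 of 25404 genes (13.0%) differed between the regimens by limma at a Benjamini-Hochberg adjusted p below 0.05. Of these, 1450 (5.71% of the genes tested) were higher under DRF and 1846 (7.27%) were lower. Most differences were small: the median absolute log2 difference of the called genes was 0.41, and 129 called genes had a log2 difference above 1 and 105 below -1. The 4 DRF and the 4 NRF values did not overlap for 4572 genes (18.0%), among them 2755 of the called genes. Among the 13745 genes with a mean of at least 1 scaled count over the 56 libraries, 2693 (19.6%) were called. Among protein-coding genes 1198 of 15100 were higher and 1549 were lower, among lincRNAs 44 of 1083 and 58, and among processed pseudogenes 43 of 1999 and 34. The labels name the libraries as separate samples without stating that each came from its own animal. The p-values therefore measure the spread between samples within groups, estimated over all 14 groups rather than from the ZT8 libraries alone.

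**Figure D1:**
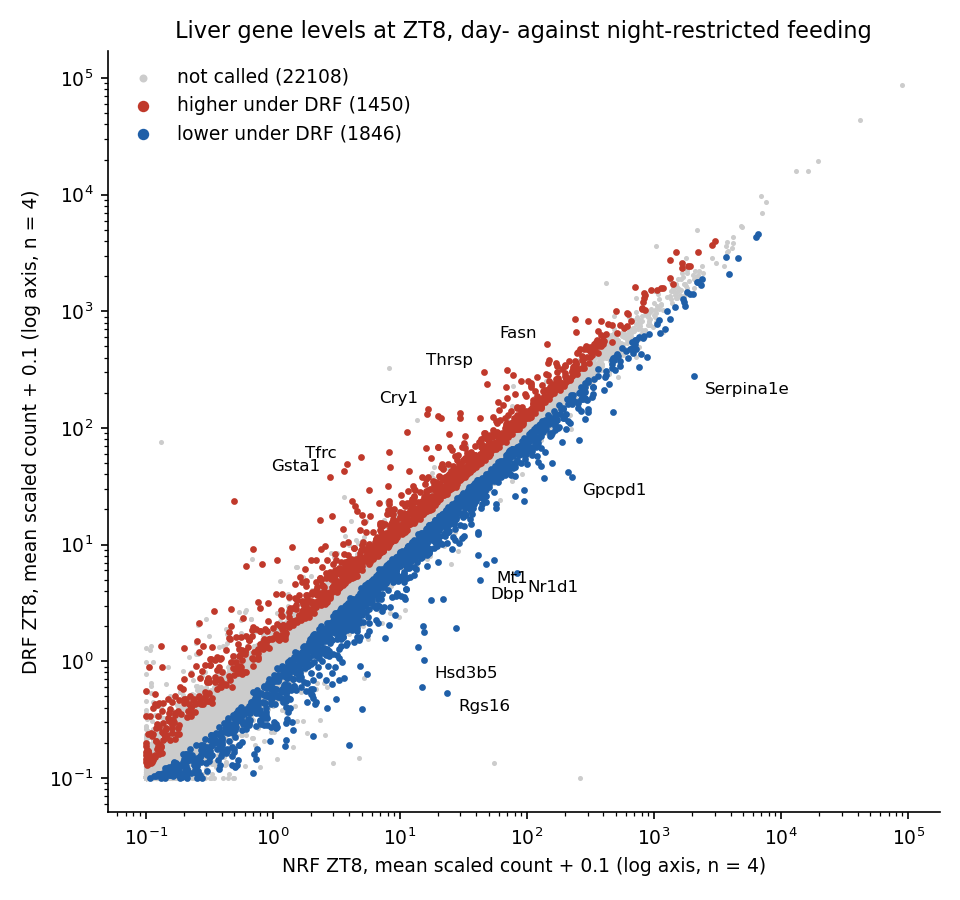
Mean scaled count of each of the 25404 genes at ZT8 under NRF (horizontal, log axis, 0.1 added) and DRF (vertical, log axis, 0.1 added), n = 4 libraries per mean. Red points are the 1450 genes called higher under DRF, blue points the 1846 called lower and grey points the rest, and genes such as Serpina1e, Nr1d1 and Rgs16 lie far below the diagonal.

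Clock genes differed in both directions, with no overlap between the groups for those that differed most. Arntl (ENSMUSG00000055116, chr7:113207465-113314126, + strand), which encodes BMAL1, measured 60.4, 55.8, 51.1 and 57.5 in the DRF libraries and 6.72, 6.26, 2.73 and 3.77 in the NRF libraries. The groups were far apart, and the log2 difference was 3.34 ± 0.19 (SE), a 10.2-fold difference on the scale of scaled counts plus 1 (adjusted p = 3.35e-17). Cry1 (chr10:85131700-85185064, - strand), a repressor of CLOCK and BMAL1, was at 147, 139, 147 and 146 under DRF against 14.9, 15.3, 17 and 19.3 under NRF (log2 difference 3.05 ± 0.20, adjusted p = 1.95e-15). The 4 DRF values lay close together, and no NRF value came near them. Nr1d1 (chr11:98767932-98775333, - strand), which encodes the repressor REV-ERB-alpha, ran the other way, at 5.61, 4.32, 7.21 and 5.34 under DRF and 88.1, 86.9, 80.2 and 78.8 under NRF (log2 difference -3.69 ± 0.31, adjusted p = 4.84e-12).

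Of the 15 genes on the clock list, 5 were higher under DRF (among them Arntl, Npas2, Cry1 and Rora) and 4 were lower (Nr1d1, Nr1d2, Bhlhe41 and Ciart), beside 13.0% called among all genes, and the median log2 difference of the list was -0.12 beside 0 over all genes. Nr1d2, the paralogue of Nr1d1, was at 47.9 to 52.6 and 140 to 182 (log2 difference -1.62 ± 0.17). None of the 3 Per genes, the other repressors of the loop, passed the test at this hour. Per2 measured 24.8, 28.4, 46.6 and 23.4 under DRF and 14.9, 15.4, 25.6 and 20.2 under NRF, and the groups overlapped (log2 difference 0.64, adjusted p = 0.0985). The log2 differences of Per1 and Per3 were -0.40 and -0.42 with adjusted p = 0.427 and 0.179. For the Per genes the difference at ZT8 departed from that at ZT4, where DRF exceeded NRF by 1.67 (Per1), 3.88 (Per2) and 3.17 (Per3) on the log2 scale (adjusted p of the departure 0.00023, 1.8e-08 and 6.5e-13).

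Clock output genes followed with 5 of 10 higher and 1 lower, a share of 60% beside 13.0% of all genes. Dbp (chr7:45705088-45710203, + strand), a transcriptional activator that binds D-boxes, fell from 34.5, 37.2, 58.1 and 42.1 in the NRF libraries to 4.81, 4.24, 5.34 and 4.98 in the DRF libraries (log2 difference -2.89 ± 0.21, adjusted p = 1.15e-13). Nfil3, the repressor that binds the same D-boxes, was at 40.9, 39.4, 44.3 and 47.0 under DRF and 12.7, 9.91, 12.2 and 11.7 under NRF (log2 difference 1.8 ± 0.16, adjusted p = 4.19e-11). The activator and the repressor of one element thus differed in opposite directions, and neither pair of groups overlapped. The other D-box activators, Tef and Hlf, had log2 differences of -0.47 and -0.45 that did not pass the test (adjusted p = 0.0785 and 0.122). Lonrf3, a gene with a RING finger, was at 16.5 to 18.3 under DRF and 2.12 to 4.15 under NRF (log2 difference 2.30 ± 0.15), and Nampt, which makes the NAD precursor NMN, was at 43.9 to 45.5 and 20 to 24.6 (log2 difference 1.0 ± 0.10).

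Read over the day, ZT8 was an extreme hour for several of these genes. Cry1 was highest in DRF at ZT8 (144.7 ± 3.90, SD, n = 4) and lowest in NRF at the same hour (16.6 ± 2.01). Nr1d1 was highest in NRF at ZT8 (83.5 ± 4.70), whereas in DRF its highest mean, 29.1 ± 12.7, came at ZT20. Arntl did not peak at ZT8 in either regimen: its highest mean was 60.1 ± 7.41 at ZT16 in DRF and 74.4 ± 5.92 at ZT0 in NRF. The highest mean of Dbp was 38.9 ± 2.90 at ZT0 in DRF and 47.3 ± 8.73 at ZT12 in NRF. These peak hours are the highest of 7 sampled means and are given as a description.

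**Figure D2:**
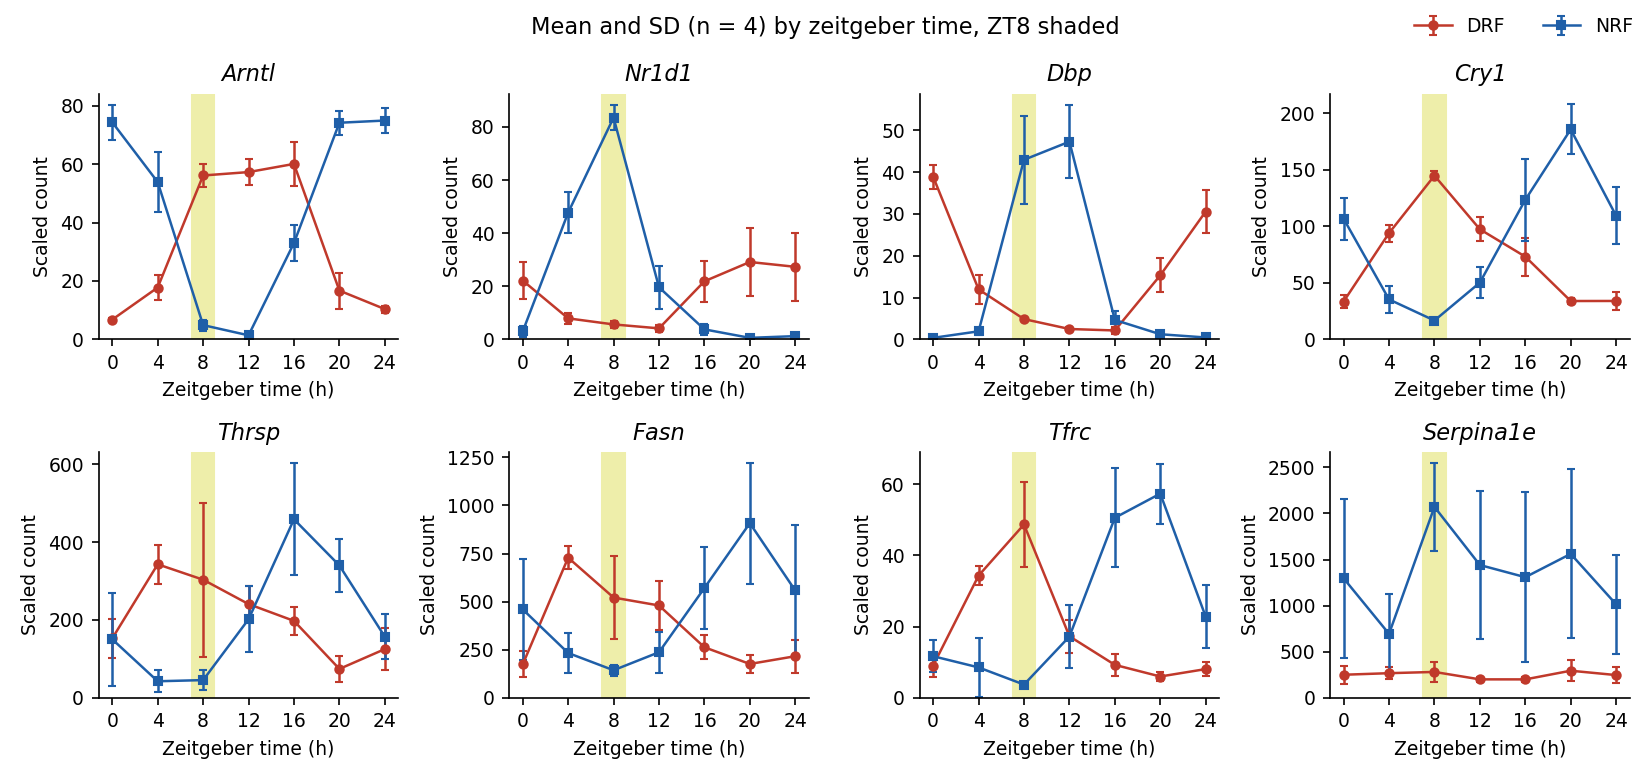
Mean scaled count (vertical, SD bars, n = 4) of 8 genes against zeitgeber time in hours, DRF in red circles and NRF in blue squares, with ZT8 shaded. Cry1 and Tfrc reached their DRF maximum and NRF minimum at ZT8, and the mean of Serpina1e was lower in DRF than in NRF at each of the 7 times.

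Promoters of 5 genes that differed at ZT8 are shown, chosen among those that held letters bound by clock or heat shock factors, to place those letters against the transcription start. Other called genes held them too, for example Insig1, Ppp1r3c and Irs2 the E-box and Pklr and Slco1a1 the element of ROR receptors and REV-ERBs. Each is printed 5′ to 3′ on the strand of the gene (GRCm38.p6 coordinates, RefSeq promoters), with the motif in capitals. TAGGTCA, the element shared by ROR receptors and REV-ERBs, or its reverse complement TGACCTA, lay 30 bases after 1 of 2 transcription starts of Arntl, at position -12 of Nfil3 and at position -54 of G6pc, the glucose-6-phosphatase gene. CACGTG, the E-box that CLOCK and BMAL1 bind, lay at position -60 of Cry1. GAANNTTC, the core of a heat shock element, lay 20 bases after a start of Hsph1, a heat shock protein gene. The promoter of G6pc also held a D-box, and Hsph1 also held an E-box.
Arntl, chr7:113207530-113207559, + strand: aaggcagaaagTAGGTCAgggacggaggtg
Nfil3, chr13:52981040-52981091, - strand: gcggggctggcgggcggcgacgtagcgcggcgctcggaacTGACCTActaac
G6pc, chr11:101367622-101367708, + strand: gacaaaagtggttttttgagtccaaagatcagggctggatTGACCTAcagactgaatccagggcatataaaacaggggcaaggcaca
Cry1, chr10:85185069-85185154, - strand: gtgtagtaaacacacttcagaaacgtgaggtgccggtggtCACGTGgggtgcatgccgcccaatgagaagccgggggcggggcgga
Hsph1, chr5:149636277-149636306, - strand: tgcagattctgGAAAGTTCtcctcagtagg
Over all 13055 genes with a promoter of 250 bases before and 50 after the start, TAGGTCA on either strand occurred in 2.64%, beside 3.39% of the 1002 genes called higher and 2.93% of the 1299 called lower. The E-box occurred in 10.7% of all, 12.5% of the higher and 12.4% of the lower genes, and the heat shock letters in 7.32%, 8.28% and 7.62%. The D-box letters TTATGTAA or TTACGTAA occurred in 135 of all promoters (1.03%), in 22 of the higher genes (2.20%) and in 9 of the lower genes (0.693%). The sterol element TCACCCCAC was found in 0.766%, 0.599% and 0.770%, and the cAMP element TGACGTCA in 3.08%, 3.09% and 3.0%. Both strands were read for every motif, no motif contains another, and these shares are descriptions without a test.

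Most genes of fatty acid synthesis were higher under DRF. Of the 16 lipogenesis genes measured, 13 were higher and 0 were lower, and their median log2 difference was 1.08. This was a share of 81.25%, beside 13.0% of all genes and 19.6% of those with a mean of at least 1 scaled count. Fasn (chr11:120805846-120824547, - strand), the fatty acid synthase gene, was at 429, 401, 848 and 408 under DRF and 121, 160, 177 and 116 under NRF (log2 difference 1.8 ± 0.38, adjusted p = 0.000578). Elovl6, which elongates palmitate, was at 152, 81.7, 130 and 125 against 20.2, 20.6, 28.1 and 15.5 (log2 difference 2.47 ± 0.32, adjusted p = 1.58e-07). Pnpla3, a lipase gene under SREBP-1c control, was at 15.0, 15.1, 22.6 and 11.4 against 2.20, 1.08, 3.38 and 2.35 (log2 difference 2.40 ± 0.43). Of the regulators, Srebf1, which encodes SREBP-1, had a log2 difference of 0.96 ± 0.20 (adjusted p = 0.000567), and Mlxipl, which encodes ChREBP, one of 0.49 ± 0.16 (adjusted p = 0.0314). Thrsp, a lipogenic protein induced by carbohydrate and thyroid hormone, was at 178, 167, 592 and 278 against 29.6, 30.7, 85.3 and 36.6 (log2 difference 2.66 ± 0.46, adjusted p = 4.14e-05). Elovl5, Mid1ip1 and Acss2 did not pass the test (log2 differences 0.19, 1.05 and 0.86). Scd1 was not analysed here.

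Genes of glucose uptake and glycolysis were mostly higher under DRF as well, with 9 of 14 genes higher and 1 lower and a median log2 difference of 0.50. Together 71.4% were called, beside 13.0% of all genes and 19.6% of those with a mean of at least 1 scaled count. Tkfc, a kinase of fructose metabolism, was at 206 to 437 against 133 to 153 (log2 difference 0.98 ± 0.21). Pklr, the liver pyruvate kinase gene, was at 62.6 to 123 against 39.1 to 61.3 (log2 difference 0.82 ± 0.26, adjusted p = 0.0273). The call for Pklr was lost without DRF replicate 3 (adjusted p = 0.165) and without NRF replicate 1, 2 or 4 (adjusted p = 0.0710, 0.0670 and 0.0832). The 1 lower member was Slc2a2, the hepatic glucose transporter GLUT2, at 265 to 412 against 412 to 532 (log2 difference -0.51 ± 0.13, adjusted p = 0.00508).

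**Figure D3:**
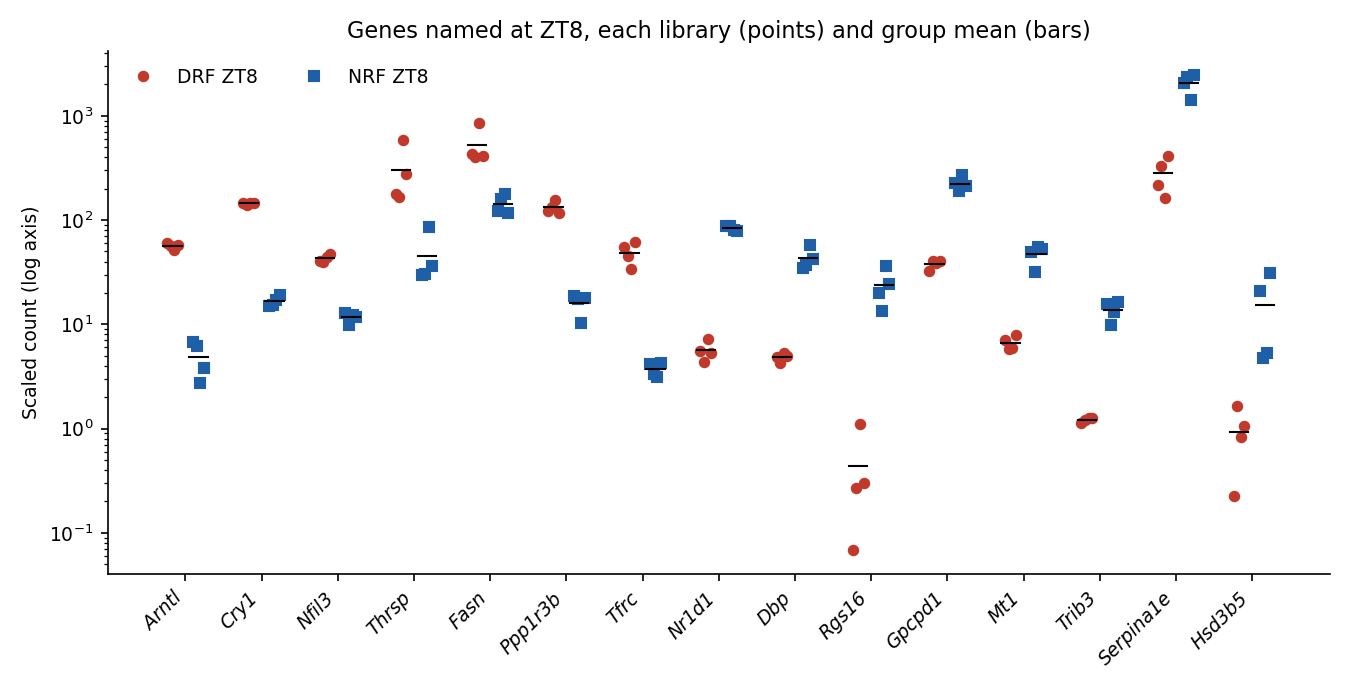
Scaled count (vertical, log axis) of 15 named genes in each of the 4 DRF (red circles) and 4 NRF (blue squares) libraries at ZT8, with the group mean as a black bar. The DRF and NRF points of every gene plotted are separate, with DRF higher for Arntl to Tfrc and lower for Nr1d1 to Hsd3b5.

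Of 10 glycogen genes 3 were higher and 2 were lower, a share of 50% beside 13.0% of all genes. Ppp1r3b (chr8:35375739-35388139, + strand), the subunit that brings protein phosphatase 1 to glycogen, was at 123, 133, 157 and 116 under DRF and 18.6, 17.6, 10.4 and 18.1 under NRF (log2 difference 2.98 ± 0.24, adjusted p = 1.12e-12). Ppp1r3c, another glycogen-targeting subunit, was higher by 1.03 ± 0.19 and the branching enzyme Gbe1 by 0.62 ± 0.14 on the log2 scale. The 2 lower members were the phosphorylase kinase subunits Phka2, at 54.5 to 65.0 against 90.7 to 98.5 (log2 difference -0.63 ± 0.04, adjusted p = 3.04e-14), and Phkg2 (log2 difference -0.29 ± 0.06). The glycogen synthase gene Gys2 and the phosphorylase gene Pygl themselves did not pass the test (log2 differences -0.24 and 0.17, adjusted p = 0.18 and 0.468).

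Gluconeogenic genes did not move as a group, with 3 of 10 higher, 1 lower and a median log2 difference of -0.01. Together 40% were called, beside 13.0% of all genes. G6pc, whose product releases free glucose, was at 143, 102, 210 and 210 under DRF and 40.9, 68.2, 49.8 and 78.7 under NRF, so that it was higher in the regimen with food at that hour (log2 difference 1.46 ± 0.34, adjusted p = 0.00214). Pck1, which makes phosphoenolpyruvate, overlapped between the regimens at 177, 189, 428 and 372 against 377, 393, 457 and 548 (log2 difference -0.70, adjusted p = 0.235). Sik1, a kinase that restrains CREB coactivators, was higher by 1.02 ± 0.24 (a call lost in a fit of the 8 ZT8 libraries alone, adjusted p = 0.0550) and Fbp1, the fructose bisphosphatase gene, by 0.35 ± 0.10, and the transcription factor gene Creb3l3 was lower (log2 difference -0.46 ± 0.13). In the insulin and FOXO list 0 of 12 genes were higher and 2 were lower. This share of 16.7% is near the 13.0% of all genes and the 19.6% of those with a mean of at least 1 scaled count. The lower genes were Insr, the insulin receptor gene, at 371 to 464 against 505 to 532 (log2 difference -0.33 ± 0.08, adjusted p = 0.0042), and Irs2, an insulin receptor substrate gene, at 25.4 to 33.2 against 47.8 to 63.1 (log2 difference -0.93 ± 0.28, adjusted p = 0.0196). Both calls were lost when the deposited values were tested in place of recovered counts (adjusted p = 0.205 for Insr and 0.0581 for Irs2), and that for Irs2 also without DRF replicate 1 (adjusted p = 0.0553) or NRF replicate 3 (0.0594). Igfbp1, a gene that insulin represses, was at 23.5 to 63.0 and 13.1 to 23.1 with adjusted p = 0.298.

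Fatty acid oxidation and ketogenesis showed no common direction, with 4 of 24 genes higher, 2 lower and a median log2 difference of 0.07. The share called was 25%, beside 13.0% of all genes and 19.6% of those with a mean of at least 1 scaled count. Cpt1a, the carnitine transferase that admits fatty acids to mitochondria, was at 101, 102, 102 and 99.6 under DRF and 185, 194, 154 and 187 under NRF (log2 difference -0.82 ± 0.14, adjusted p = 2.2e-05). Ppara, the receptor of the fasting response, was the other lower gene, at 141 to 205 against 250 to 280 (log2 difference -0.59 ± 0.14). Pdk4, a kinase that shuts glucose carbon out of the citrate cycle, was instead higher under DRF, at 22.5, 27.8, 23.4 and 19.5 against 5.60, 5.25, 2.23 and 3.33 (log2 difference 2.30 ± 0.33, adjusted p = 1.43e-06). The higher genes also included Acaa1b (log2 difference 0.83 ± 0.18) and Ehhadh (0.49 ± 0.16), both of peroxisomal oxidation.

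Among 24 genes of cholesterol synthesis and uptake, 5 were higher (among them Insig1, Pmvk, Lss and Sc5d) and 1 was lower (Mvk). This was a share of 25%, beside 13.0% of all genes and 19.6% of those with a mean of at least 1 scaled count. Insig1, which restrains SREBP processing, was higher by 1.09 ± 0.19. NRF replicate 2 held the highest NRF value of many of the sterol genes, for example 859 for Hmgcs1 beside 226 to 363 in the other NRF libraries. Bile acid genes, by contrast, were mostly lower under DRF, with 8 of 15 lower and 1 higher (Baat) and a median log2 difference of -0.36. Together 60% of the bile acid genes were called. The lower genes included the transporters Abcb11 (log2 difference -0.48 ± 0.10), Abcg5 (-0.67 ± 0.14), Abcg8 (-1.07 ± 0.18) and Slc10a1 (-0.36 ± 0.11) and the bile acid receptor Nr1h4 (-0.32 ± 0.10). Slco1a1, an organic anion transporter, was at 4.35, 42.3, 18.7 and 28.5 against 121, 81.9, 54.2 and 119 (log2 difference -2.24 ± 0.52, adjusted p = 0.00201, and -1.63 without DRF replicate 1), and its call was lost with the ZT8 libraries alone (adjusted p = 0.0709). Cyp7a1, the rate-limiting enzyme of bile acid synthesis, was at 52.6 to 185 against 120 to 172 and did not pass the test (log2 difference -0.48, adjusted p = 0.518). Cyp8b1, which sets the share of cholic acid, was lower (log2 difference -0.69 ± 0.23, adjusted p = 0.0357), a call that was lost without DRF replicate 2 or 3 or NRF replicate 1, 2 or 4 (adjusted p = 0.0605, 0.272, 0.0664, 0.0590 and 0.112).

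In amino acid breakdown and the urea cycle 4 of 24 genes were higher and 1 was lower, a share of 20.8% beside 13.0% of all genes and 19.6% of those with a mean of at least 1 scaled count. Tat, tyrosine aminotransferase, was at 776, 578, 950 and 986 under DRF and 290, 328, 528 and 373 under NRF (log2 difference 1.12 ± 0.25, adjusted p = 0.00101), and Asl, argininosuccinate lyase, was higher by 0.82 ± 0.16. Agxt, which detoxifies glyoxylate, was at 108 to 164 against 240 to 291 (log2 difference -0.94 ± 0.15). The serine dehydratase gene Sds did not pass the test (log2 difference 0.08, adjusted p = 0.912). Of 13 genes of the integrated stress response and serine synthesis, 1 was higher, Ddit4, an inhibitor of mTORC1 (log2 difference 1.12 ± 0.21), and 1 was lower, Trib3, a pseudokinase induced by ATF4, a share of 15.4% that is near the 13.0% of all genes. Trib3 was at 1.13, 1.2, 1.26 and 1.26 under DRF and 15.7, 9.95, 13.2 and 16.2 under NRF (log2 difference -2.72 ± 0.27, adjusted p = 3.38e-10). Other ATF4 targets such as Asns did not pass (log2 difference -0.24, adjusted p = 0.107), nor did Phgdh (0.02, adjusted p = 0.979). Among autophagy genes 0 of 11 were higher and 3 were lower: Ulk1, the initiating kinase gene (log2 difference -0.69 ± 0.13), Wipi1 (-0.70 ± 0.14) and Atg14 (-0.47 ± 0.10). These made up 27.3%, beside 13.0% of all genes and 19.6% of those with a mean of at least 1 scaled count. The cargo receptor gene Sqstm1 did not pass (log2 difference -0.13, adjusted p = 0.327).

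Many protein-folding genes were higher under DRF. Of 18 genes for chaperones of the endoplasmic reticulum, 12 were higher and 1 was lower, with a median log2 difference of 0.56. The share called was 72.2%, beside 13.0% of all genes and 19.6% of those with a mean of at least 1 scaled count. Hyou1, a large chaperone of that compartment, was at 85.5, 113, 71.3 and 73.0 under DRF and 29.9, 27.6, 44.7 and 27.8 under NRF (log2 difference 1.37 ± 0.20, adjusted p = 3.43e-06). Creld2, another gene of that compartment, was higher by 1.25 ± 0.33 (adjusted p = 0.00713, and 0.0524 without DRF replicate 2). Hspa5, which encodes the chaperone BiP, was at 73.3 to 111 against 51.1 to 64.4 and missed the threshold (log2 difference 0.67, adjusted p = 0.0625), but passed it without DRF replicate 2 (0.0439). Xbp1, a transcription factor gene of the unfolded protein response, was the lower member, at 28.2 to 34.9 against 39.3 to 44.1 (log2 difference -0.38 ± 0.10, adjusted p = 0.00953, and 0.0537 without DRF replicate 4).

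Of 16 heat shock and temperature genes, 7 were higher and 1 was lower, with a median log2 difference of 0.43. Together 50% were called, beside 13.0% of all genes and 19.6% of those with a mean of at least 1 scaled count. Hsp90aa1, an inducible cytosolic chaperone, was at 145, 160, 95.1 and 135 under DRF and 35.0, 30.3, 29.8 and 23.4 under NRF (log2 difference 2.13 ± 0.49, adjusted p = 0.00174). The classical inducible gene Hspa1b was near the bottom of its range in both regimens, at 0.515 to 1.2 and 0.723 to 1.13 (log2 difference -0.04, adjusted p = 0.981). Hsph1 was higher by 1.01 ± 0.31 (adjusted p = 0.0232), a call lost without DRF replicate 1 or 3 or NRF replicate 1 or 3 (adjusted p = 0.0663, 0.0545, 0.0528 and 0.0828). Cirbp, an RNA-binding protein gene induced by cooling, was the lower member at 1.86 to 2.71 against 3.19 to 4.43 (log2 difference -0.56 ± 0.19, adjusted p = 0.0469), and this call was lost on leaving out any of 7 of the 8 libraries (adjusted p from 0.0504 without DRF replicate 1 to 0.133 without DRF replicate 2). In ribosome biogenesis 1 of 23 genes was higher (Bop1, log2 difference 0.58 ± 0.10) and 2 were lower (Rrp9, -0.44 ± 0.13, and Polr1c, -0.28 ± 0.09). This share equals the 13.0% called among all genes and lies below the 19.6% of those with a mean of at least 1 scaled count. Rrp9 lost its call without DRF replicate 2 (adjusted p = 0.0570) or NRF replicate 3 (0.0787). Ncl and Nop56, both nucleolar protein genes, had log2 differences of 0.27 and 0.03 (adjusted p = 0.245 and 0.93).

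Genes were ranked by log2 difference among reported protein-coding genes that were called without overlap, with a mean of at least 5 scaled counts. The largest difference in favour of DRF belonged to Gm3776 (chr9:78257129-78269166, + strand), a gene next to the glutathione transferase Gsta1 (chr9:78230656-78242684, + strand), whose product conjugates electrophiles. Gm3776 was at 32.2, 6.29, 15.1 and 40.9 under DRF and 1.23, 0, 0 and 0.339 under NRF (log2 difference 3.93 ± 0.61, adjusted p = 6.42e-06). Gsta1 was at 56.5, 8.76, 33.0 and 52.5 against 2.16, 0.267, 8.09 and 0.405 (log2 difference 3.57 ± 0.62, adjusted p = 4.00e-05, and 4.16 without NRF replicate 3). DRF replicate 2 was the lowest DRF library for both, and its Gsta1 value lay just above the highest NRF value. These genes are close copies among which reads may be divided in counting, so the sum of Gsta1, Gsta2 and Gm3776 is also given: 130.24 ± 60.1 (SD, n = 4) under DRF and 23.1 ± 15.9 under NRF. Sult2a3, a sulfotransferase of steroids and bile acids from another family of close copies, was at 101, 9.87, 37.0 and 24.5 against 3.59, 3.21, 6.54 and 0.759 (log2 difference 3.01 ± 0.67, adjusted p = 0.00125, and 0.149 with deposited values). Of 13 drug metabolism genes 2 were higher and 1 was lower (23.1%, beside 19.6% of genes with a mean of at least 1 scaled count). Cyp2b10, a target of the receptor CAR, was at 267, 230, 257 and 381 against 87.7, 54.0, 122 and 46.0 (log2 difference 1.94 ± 0.38, adjusted p = 0.000238). Nr1i2, which encodes a different receptor, PXR, was higher by 0.37 ± 0.11. Cyp2e1, which oxidises ethanol and acetone, was lower (log2 difference -0.54 ± 0.14), a call lost with deposited values (adjusted p = 0.0978) and with the ZT8 libraries alone (0.0698). Por and Alas1 did not pass the test (log2 differences -0.05 and 0.06, adjusted p = 0.881 and 0.978).

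Of the growth hormone responsive and sex-biased genes, 7 of 14 were lower under DRF and 1 was higher, with a median log2 difference of -0.88. The share called was 57.1%, beside 13.0% of all genes and 19.6% of those with a mean of at least 1 scaled count. Hsd3b5, a steroid dehydrogenase gene typical of male liver, was at 0.226, 1.63, 0.828 and 1.05 under DRF and 20.7, 4.74, 5.25 and 30.8 under NRF (log2 difference -2.75 ± 0.62, adjusted p = 0.0013). Socs2, a feedback inhibitor of growth hormone signalling, was at 2.92 to 4.76 against 7.67 to 13.3 (log2 difference -1.39 ± 0.35), while the hormone's circulating mediator Igf1 did not pass (log2 difference 0.17, adjusted p = 0.598). Mup7, a major urinary protein gene, was at 0.0591, 0.749, 6.71 and 5.85 against 30.6, 18.4, 11.2 and 26.4 (log2 difference -2.76 ± 0.79, adjusted p = 0.0129, and 0.0797 without DRF replicate 1). Mup genes are near-identical copies, so the value of any 1 of them is uncertain. Of the 20 measured, 0 were higher and 3 were lower, beside 5.71% higher and 7.27% lower among all genes. Their sum was 5811.5 ± 4527.2 under DRF and 7969.9 ± 2350.4 under NRF. The groups overlapped in this sum, at 2752.3, 4083.5, 3864.5 and 12546 under DRF and 9159.8, 10586, 5336.4 and 6797 under NRF. In the glucocorticoid list 1 of 9 genes was higher, Tsc22d3 (log2 difference 1.30 ± 0.23), 3 were lower, among them Klf9 (-1.09 ± 0.15), and Fkbp5 did not pass (-0.42, adjusted p = 0.672). The share called in the glucocorticoid list was 44.4%, beside the same 13.0% of all genes.

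Serpina1e (chr12:103946931-103958975, - strand), which encodes an alpha-1-antitrypsin, was at 217, 331, 165 and 411 under DRF and 2047, 2335, 1412 and 2488 under NRF (log2 difference -2.93 ± 0.49, adjusted p = 2.51e-05). The same direction was seen at ZT20 (log2 difference -2.29, adjusted p = 0.00064), and the difference between these hours did not pass the test (adjusted p = 0.6). Serpina1e is also 1 of 5 close copies among which reads may be divided in counting. The other 4 copies did not pass the test, and their levels were too high to check that the recovered counts were whole. The sum of all 5 copies was 54293 ± 4444 (SD, n = 4) under DRF and 55405 ± 2624 under NRF. Most of this sum was Serpina1b, with means of 43296 under DRF and 41643 under NRF.

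Other genes with large differences are given next, of which Tfrc, Tubb2a, Rgs16, Gpcpd1 and Fbxo21 are on none of the lists. Tfrc (chr16:32608920-32632794, + strand), the transferrin receptor gene for iron uptake, was at 54.7, 44.8, 34.1 and 61.3 under DRF and 4.19, 3.35, 3.11 and 4.25 under NRF (log2 difference 3.37 ± 0.34, adjusted p = 6.85e-10). Tubb2a, a beta-tubulin gene, was at 72.5, 56.2, 53.3 and 66.4 against 8.20, 11.3, 6.54 and 6.64 (log2 difference 2.80 ± 0.18, adjusted p = 1.09e-15). Tsku, a secreted leucine-rich protein of the liver and 1 of the higher genes of the clock output list, was at 60.6, 40.1, 171 and 96.4 against 11.8, 9.62, 8.56 and 15.0 (log2 difference 2.75 ± 0.44). Rgs16 (chr1:153740349-153745468, + strand), which ends signalling by G proteins, had the largest difference in favour of NRF in the ranking that Gm3776 led for DRF. It was at 0.0679, 0.270, 1.11 and 0.299 under DRF and 19.9, 13.5, 36.4 and 24.6 under NRF (log2 difference -4.06 ± 0.48, adjusted p = 2.86e-08).

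The metallothionein genes Mt1 and Mt2, which bind zinc and copper, were both lower under DRF. Mt1 was at 7.05, 5.84, 5.92 and 7.89 against 48.9, 31.8, 55.7 and 52.3 (log2 difference -2.63 ± 0.44, adjusted p = 2.65e-05), and Mt2 at 6.89, 7.06, 7.21 and 7.86 against 53.6, 38.2, 60.2 and 66.7 (log2 difference -2.73 ± 0.50, adjusted p = 0.000103). Gpcpd1, a phosphodiesterase of choline metabolism, was at 32.1 to 40.7 against 191 to 268 (log2 difference -2.52 ± 0.20, adjusted p = 1.12e-12), and Fbxo21, an F-box protein gene, at 36.6 to 47.4 against 182 to 231 (log2 difference -2.32 ± 0.20, adjusted p = 5.04e-12). Genes annotated on the opposite strand cover 73.5% of the exon bases of Mt2, 18.0% of Dbp, 8.55% of Nr1d1, 22.0% of Pklr and 10.1% of Rgs16. Whether counting used the strand of the reads is not given in the sources used here, so that reads of these partners may be included in the values.

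**Figure D4:**
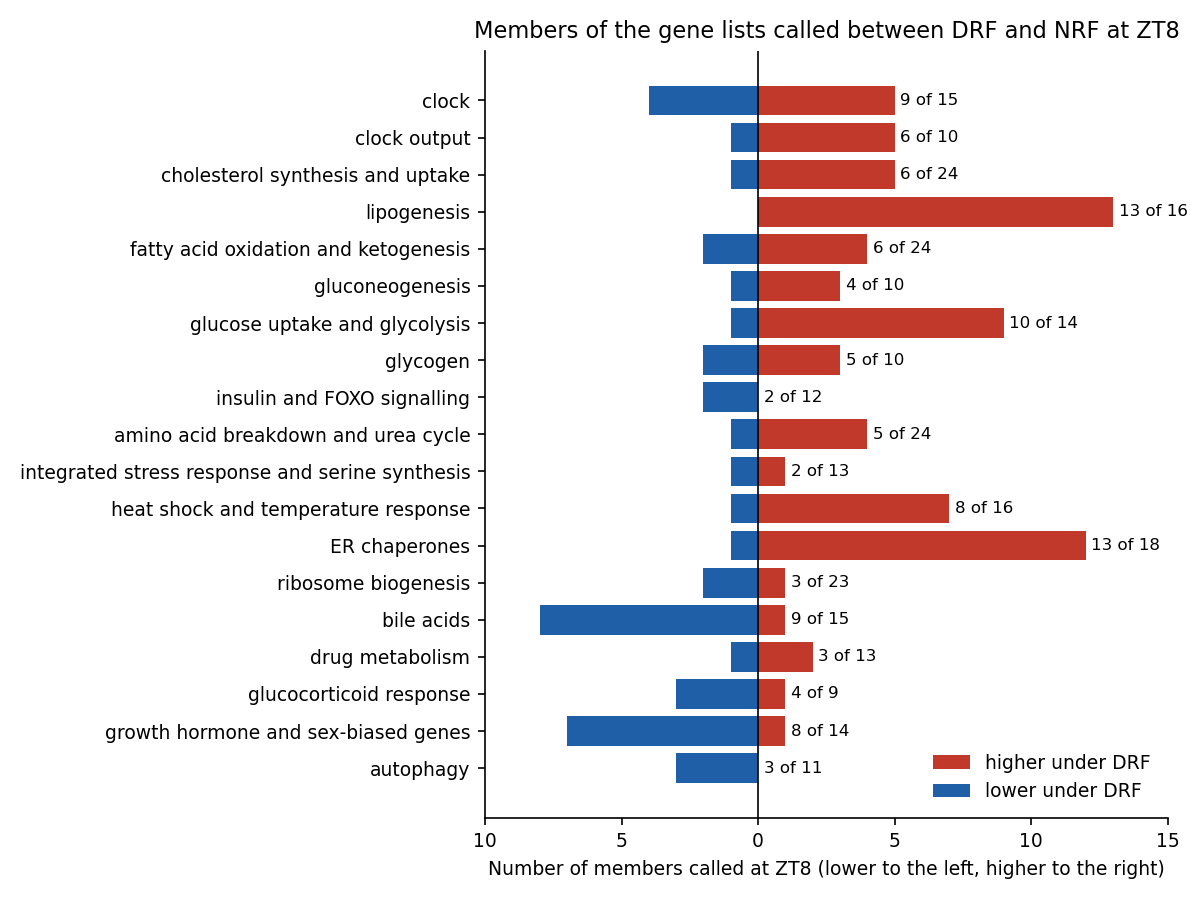
Number of genes of each of the 19 pathway lists called at ZT8 (horizontal), higher under DRF to the right in red and lower to the left in blue, with the number called of the number measured beside each bar. Lipogenesis (13 higher, 0 lower) and ER chaperones (12 higher, 1 lower) extended farthest to the right, and bile acids (8 lower) and growth hormone genes (7 lower) farthest to the left.

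To ask whether the ZT8 differences belonged to the hour, they were set against those at ZT20, 12 h later, when the feeding phase is that of NRF. The ZT8 and ZT20 comparisons share no library. At ZT20, 3491 genes (13.7%) were called, and 1600 genes were called at both hours, 48.5% of the ZT8 list and 45.8% of the ZT20 list. Of these 1600, 1569 had opposite signs: 685 were higher under DRF at ZT8 and lower at ZT20, and 884 the reverse. Across all genes the ZT8 difference departed from the ZT20 difference in 5309 (20.9%), which included all of the 1569 and 2813 of the 3296 genes called at ZT8. That all 1569 passed follows from their selection, because each was called at both hours with opposite signs. Tfrc changed from a log2 difference of 3.37 at ZT8 to -3.07 at ZT20, Nr1d1 from -3.69 to 4.20, Rgs16 from -4.06 to 3.08 and Mt2 from -2.73 to 3.80 (adjusted p of the departures 3.7e-14, 3.4e-18, 2.7e-11 and 9.7e-10). In lipogenesis 10 of 16 genes were lower and 0 were higher at ZT20, and 15 of 16 departed from ZT8. In the chaperone list of the endoplasmic reticulum 14 of 18 were lower at ZT20, and 15 departed. In the growth hormone and sex-biased list 4 of 14 departed.

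Only 31 genes were called at both hours with the same sign, 15 higher and 16 lower. Besides Serpina1e, this set held Mfsd2a, a lipid transporter gene, at 45.3, 28, 135 and 63.7 under DRF and 13.2, 19.5, 26.3 and 21.2 under NRF at ZT8 (log2 difference 1.52 ± 0.33, and 1.8 at ZT20), and Apoa5, an apolipoprotein gene, at 118 to 165 against 78.4 to 95 (0.76 ± 0.14, and 1.03 at ZT20). The lower members included Mup3 (log2 difference -0.82 at ZT8 and -0.59 at ZT20) and Xbp1 (-0.38 at each hour). These genes were picked after their values were seen. A further 1696 genes were called at ZT8 and not at ZT20, and for 1244 of them the departure passed the test.

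**Figure D5:**
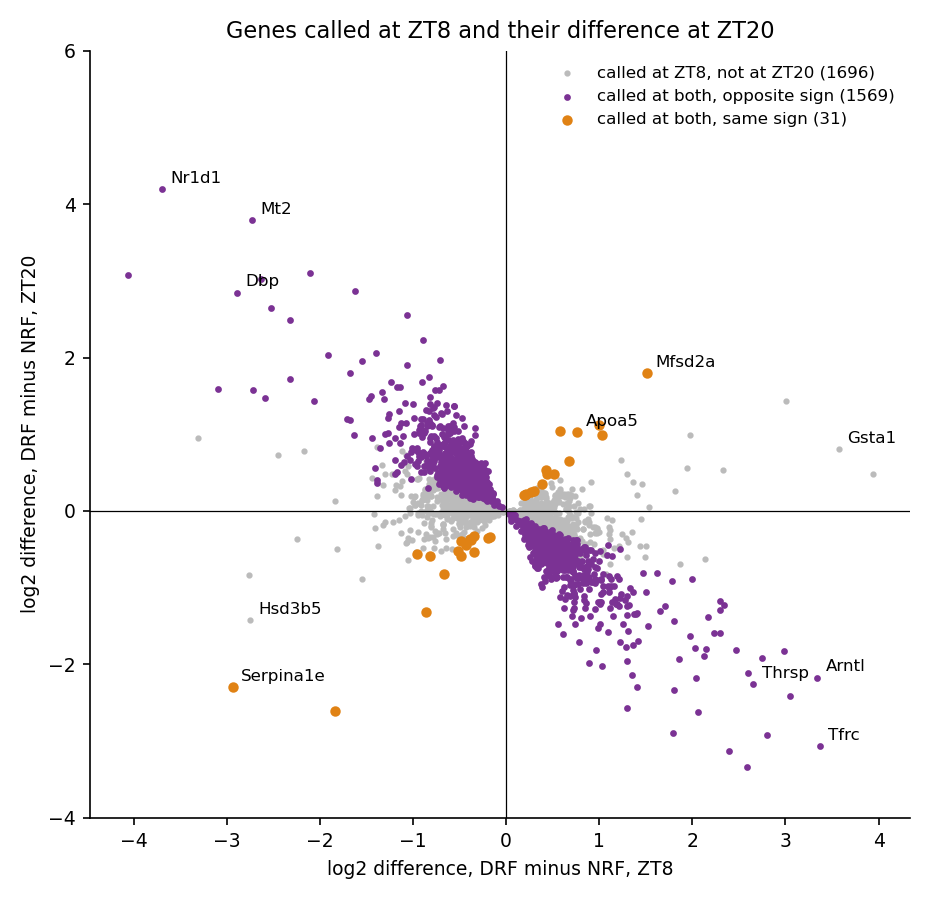
Log2 difference (DRF minus NRF) at ZT20 (vertical) against that at ZT8 (horizontal) for the 3296 genes called at ZT8. The 1569 genes called at both hours with opposite signs (purple) lie in the upper left and lower right, the 31 with the same sign (orange) include Serpina1e and Mfsd2a, and 1696 were not called at ZT20 (grey).

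Against ZT4, 4 h earlier in the same light phase, the direction mostly held. At ZT4, 5168 genes (20.3%) were called, 1477 of them also at ZT8, which is 44.8% of the ZT8 list and 28.6% of the ZT4 list. Of the shared genes 1299 had the same sign, 701 higher and 598 lower, and 178 had opposite signs. The ZT8 difference departed from the ZT4 difference in 2109 genes (8.30%), including all of the 178 and 847 of the genes called at ZT8. That all 178 passed again follows from their selection by opposite signs. Arntl reversed within these 4 h, from a log2 difference of -1.56 at ZT4 to 3.34 at ZT8 (adjusted p of the departure 8.3e-18), and so did Dbp, from 2.17 to -2.89 (1.5e-16), and Cpt1a, from 0.50 to -0.82 (5.3e-06). Slc2a5, the fructose transporter gene, went from 1.41 to -1.54 (7.4e-09) and Chka, a choline kinase gene, from -0.93 to 1.42 (9.4e-10), both chosen after their values were seen. Clock genes departed from ZT4 in 13 of 15 cases and clock output genes in 8 of 10. In ribosome biogenesis 18 of 23 genes were higher at ZT4 against 1 at ZT8, and 11 departed, whereas in lipogenesis 4 of 16 and in glycolysis 2 of 14 departed.

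Circular RNAs, which form when a splice donor joins an upstream acceptor, were measured in the same libraries. Of 1131 circular RNAs above 0 in at least 28 of the 56 libraries, limma called 0 (0.00%) between DRF and NRF at ZT8, with 71 at an unadjusted p under 0.05 and a lowest adjusted p of 0.335. In the NRF replicate 4 library 28 values were off the count step of the library, and without these values, an alternative chosen after seeing the data, 0 were called, 67 had an unadjusted p under 0.05 and the lowest adjusted p was 0.331.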

How the data were processed

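Livers were sampled from DRF and NRF mice and sequenced as rRNA-depleted, strand-specific, paired-end libraries, although the labels also name polyA RNA. The submitters' processing notes name CASAVA 1.8, featureCounts 1.5.0-p3 and the builds mm10 and GRCm38.p6, and the aligner and the strand setting are not given in the sources used here. The authors named the deposited gene values TPM, and those values are treated as a score: each ZT8 library summed to between 996256 and 997758, but value times exon length followed the natural log of 1 plus a scaled whole count. The counts were recovered by inverting that relation with GENCODE M21 exon lengths (whole within 0.05 for 94.29% to 98.92% of values by count range, 10.0% by chance, checked on 12121 genes that the fit did not use). For 2209 genes, Cpt1a, Sik1, Tkfc and Ppp1r3c among those named, and for 5 others, the annotated length gave too few whole counts or was missing, and the length was instead searched for as the one that did. For 57 genes of very high level, Cyp2e1 among them, the annotated length was used unchecked. Of 25415 genes, 25404 could be used. A scaled count is the recovered count times a factor for each library. The deposited circular RNA values are on a log2 scale after the authors' TMM normalization. The transcript table was not used, and 0 columns could not be mapped to a sample.

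Differences were tested with limma 3.58.1 in R 4.3.3 (trended empirical Bayes) on log2(scaled count + 1), with 14 group means over all 56 libraries and the Benjamini-Hochberg adjustment over 25404 genes, called at an adjusted p below 0.05. The departures from ZT20 and from ZT4 were contrasts of the same fit. The design was written for scaled counts before their form was known from the files. Figures and summaries used Python 3.11.15, pandas 2.3.3, numpy 2.4.6 and matplotlib 3.10.9. The procedure was tested on simulated data.

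The comparison and the gene lists were chosen with earlier results of these data known. Named genes were the 10 higher and 10 lower protein-coding genes with the largest log2 difference among those called, not overlapping between groups and with a mean of at least 5 scaled counts over the 56 libraries, and for each of the 19 pathway lists its fixed anchors and the 2 called members with the largest difference. Some genes that these rules select are not reported here, although the counts over lists include them. Other list members, and genes outside the lists, were named after their values were seen. The alternatives were the deposited values, pseudocounts of 0.1 and 5, a mean of at least 1 scaled count, median-of-ratios scaling, a correction for exon length, the libraries of the contrast alone, a replicate block, and leaving out each of the 8 libraries. The replicate numbers are shared between groups, but no source says that they pair the mice.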

Additional observations from a re-analysis of the deposited data

Results flagged for a closer look

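In 9 of 144 groups of 4 ZT8 libraries of the named genes, 1 library lay far from the other 3 by Dixon's test, where chance gives about 1 in 20. Among DRF libraries, Cry1 was 138.9 in replicate 2 beside 145.87 to 147.06 in the others, and replicate 3 held 848.09 for Fasn beside 400.82 to 428.99. In NRF replicate 3, Ppp1r3b was 10.358 beside 17.609 to 18.568, Thrsp 85.3 beside 29.632 to 36.635, Pklr 61.275 beside 39.086 to 41.118, and Hyou1 44.726 beside 27.626 to 29.905. In NRF replicate 2, Ddit4 was 0.6989 beside 0.86304 to 0.87618. In NRF replicate 4, Hspa1b was 1.1287 beside 0.72328 to 0.77509 and Tsc22d3 140.62 beside 86.9 to 89.888. NRF replicate 3 had the fewest recovered counts of the 8 libraries, 383941518. The part of depth in these values was not tested.

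The effect of the regimen at ZT8 differed from that at ZT20 for 5309 genes and from that at ZT4 for 2109 genes, by the test of the difference itself (limma, adjusted p below 0.05).

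In the circular RNA values, 28 values of NRF replicate 4 at ZT8 were not whole multiples of the count step of that library within 0.01, and lay a common factor of 73.19 off it. It was the 1 library of 56 with such values.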

How the results depend on the processing

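Under the other settings the number of genes called at ZT8 ranged from 2282 (deposited values) to 3308, and with 1 library left out from 2632 (without NRF replicate 4) to 3057, beside 3296. The departures from ZT20 ranged from 4502 to 5422 (4859 to 5174 with 1 library left out) and those from ZT4 from 1524 to 2147 (1720 to 1996), and no gene called both in the main fit and in an alternative changed sign. Circular RNAs gave 0 calls in every setting. With the replicate block 3282, 5343 and 2147 genes were called in these 3 tests. Deviations of libraries with the same number correlated at 0.0459, -0.0412, 0.0579 and -0.0697, with 2 of 4 matching their own number best, so the numbers were not taken as a pairing. The direction reversed only for genes with differences near 0: the log2 difference of Phgdh was -0.099 with deposited values, -0.042 with a pseudocount of 0.1 and -0.048 to 0.113 with 1 library left out. The same range was -0.057 to 0.263 for Sds, -0.136 to 0.043 for Hspa1b, -0.012 to 0.093 for Nop56 and -0.237 to 0.326 for Alas1. The calls of Sult2a3 (adjusted p = 0.149), Irs2 (0.0581), Insr (0.205), Cirbp (0.167), Rrp9 (0.0734), Cyp8b1 (0.0590) and Cyp2e1 (0.0978) were lost with deposited values. With the libraries of the contrast alone, the calls of Sik1 (0.0550), Pklr (0.0750), Creld2 (0.0596), Cyp8b1 (0.148), Slco1a1 (0.0709) and Cyp2e1 (0.0698) were lost and Hspa5 passed (0.0201). The call of Cirbp was also lost with the replicate block (0.0564) and with a pseudocount of 0.1 (0.0860). The cause of these changes was not tested. Every ZT8 library held at least 383941518 recovered counts, which are not read numbers, and each group held 4 libraries.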

Other observations

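Among the 13 alpha- and beta-tubulin genes measured, a set chosen after its values were seen, 7 were higher under DRF at ZT8 and 0 were lower, beside 5.71% higher and 7.27% lower among all genes. Their summed scaled count was 231.52 ± 24.4 (SD, n = 4) under DRF and 108.15 ± 16 under NRF. Besides Tubb2a, the higher genes included Tuba4a (log2 difference 1.33 ± 0.16), Tuba1c (1.02 ± 0.20) and Tuba1a (0.47 ± 0.12), while Tubb5 did not pass the test (-0.01, adjusted p = 0.987). An antisense gene model covers 37.3% of the exon bases of Tuba4a. Slc11a2, the iron transporter gene DMT1, was also higher, at 35.1 to 43.9 under DRF and 14.9 to 17.5 under NRF (log2 difference 1.16 ± 0.10).

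Esr1, the estrogen receptor gene, was at 190, 200, 167 and 225 under DRF and 60.6, 97.5, 94.1 and 70.5 under NRF (log2 difference 1.29 ± 0.14, adjusted p = 3.5e-09), and Slc41a2, a magnesium transporter gene, was at 117 to 136 against 18 to 21.4 (2.60 ± 0.22). Flcn, a regulator of lysosomal nutrient sensing, was lower (log2 difference -1.14 ± 0.13). Slc10a2, a bile acid transporter gene, was at 12.3 to 26.2 against 3.59 to 5.43 (2.04 ± 0.25). All of these genes were chosen after their values were seen.

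The counts of some gene models that overlap or copy each other were uneven between replicates. Gm20425 was at 0 in all 4 DRF libraries and at 583, 466, 0 and 0 in the NRF libraries. An Nnt model was at 15.7, 226, 212 and 15.2 in the DRF libraries. The sum of both Nnt models was uneven as well, at 378.7, 226.1, 212.2 and 402.5 under DRF and 395, 390, 197.5 and 399.4 under NRF. Mup8 was at 21.2 to 41.3 under DRF and at 100, 0.0748, 0.00241 and 0.00624 under NRF, the last 2 at or near the floor of 3 counts. The cause of these uneven counts was not tested.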
